A study of Mus musculus with 15 samples.

Results

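The chemokine receptors of bone marrow-derived macrophages (BMDMs) were examined as a set of 7 genes, Ccr1, Ccr2, Ccr3, Ccr7, Ccrl2, Cx3cr1 and Cxcr4, chosen by name from the 55385 genes of the count table. All 7 were found in the table, and 6 passed the filter on low counts that is given below. BMDMs are macrophages grown from bone marrow precursors in culture. They were obtained from BALB/c mice aged 6 wk in which the STAT5 locus carried loxP sites, either without deletion (STAT5fl/fl, 2 mice, numbered 112 and 113) or with deletion by Csf1r-iCre (STAT5cKO, 3 mice, numbered 114, 115 and 116). The Csf1r-iCre transgene is expressed from a promoter of the myeloid lineage, and its activity is not limited to macrophages. Cells of each mouse were cultured for 2 h in serum-free DMEM, in DMEM with 20 ng/mL recombinant mouse GM-CSF (rmGM-CSF), or in 4T1 CM, which is medium conditioned by serum-starved 4T1 cells, a BALB/c mammary tumor cell line. This gave 15 RNA-seq libraries in 6 groups, with n = 2 in every STAT5fl/fl group and n = 3 in every STAT5cKO group. A further STAT5fl/fl replicate was removed by the study's quality control.

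Chemokine receptors are seven-pass membrane proteins that couple to inhibitory G proteins and steer leukocytes along gradients of small secreted chemokines. CCR1, CCR2 and CCR3 bind inflammatory CC chemokines such as CCL3, CCL2 and the eotaxins, respectively, and are best known on monocytes and macrophages, on inflammatory monocytes, and on eosinophils. CCR7 guides dendritic cells and lymphocytes to lymph nodes, CX3CR1 binds fractalkine on monocytes and resident macrophages, and CXCR4 binds CXCL12 and holds cells in the bone marrow. CCRL2 is an atypical receptor that does not signal through G proteins and presents the chemoattractant chemerin to neighboring cells. GM-CSF is a cytokine that signals through JAK2 and STAT5, and the comparison of the genotypes asks which of these receptor transcripts depend on STAT5.

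The labels were checked first. Stat5a had 637 to 918 counts in the STAT5fl/fl libraries and at most 3 in any STAT5cKO library, and Stat5b had 977 to 1654 counts against at most 4. Library totals ranged from 16016736 to 22883108 assigned counts, so a count of 3, used as the detection floor, corresponds to 0.131 to 0.187 CPM (counts scaled to a common library total) before normalization. Macrophage identity was clear in every library, since Csf1r ranged from 3821 to 4199 normalized CPM and Adgre1, which encodes F4/80, from 768 to 1759. Markers of other cells were low but not all at 0. Cd3e (T cells), Ly6g (neutrophils), Epx (eosinophils), Krt8 (epithelial cells) and Ms4a1 (B cells) had at most 3 counts in any library, whereas S100a8 of the neutrophil list reached 50 counts, Lck of the T cell list 37 and Siglecf of the eosinophil list 176. Kit, of the mast cell and basophil list, reached 442 counts, while the other 4 genes of that list, Cpa3, Fcer1a, Mcpt8 and Ms4a2, had at most 2. The sum of that list was higher in STAT5fl/fl than in STAT5cKO libraries, with 15.8 to 20.1 against 4.65 to 7.48 normalized CPM in DMEM, 19.6 to 23.5 against 3.77 to 6.13 in rmGM-CSF, and 6.35 to 8.17 against 1.18 to 4.07 in 4T1 CM. The summed level of 8 macrophage markers, most of it Lyz2, was higher in STAT5cKO than in STAT5fl/fl libraries in each medium. It spanned 31110 to 36810 against 24630 to 25030 normalized CPM in DMEM, 34870 to 37950 against 25800 to 27250 in rmGM-CSF, and 36820 to 46590 against 28840 to 29830 in 4T1 CM. The part of these marker differences in the genotype results given below was not tested. In such bulk samples, fewer cells that carry a transcript and less RNA per cell cannot be told apart.

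Of the 7 genes, 5 lie on mouse chromosome 9 in the GRCm38 annotation used for counting. Ccr1 (ENSMUSG00000025804, chr9:123962124-123968692, minus strand), Ccr3 (ENSMUSG00000035448, chr9:124021972-124031689, plus strand) and Ccr2 (ENSMUSG00000049103, chr9:124101950-124113557, plus strand) are neighbors within 151.4 kb. Ccrl2 (ENSMUSG00000043953, chr9:111054486-111057519, minus strand) lies 12.9 Mb from Ccr1, and Cx3cr1 (ENSMUSG00000052336, chr9:119901616-120069879, minus strand) lies 3.89 Mb from it. Ccr7 (ENSMUSG00000037944, chr11:99144196-99155077, minus strand) and Cxcr4 (ENSMUSG00000045382, chr1:128588199-128592293, minus strand) are on other chromosomes. Counts were taken over the exons of each gene. Ccr1 lies beside the similar gene Ccr1l1, which had at most 22 counts in any library, and reads that map equally well to both can have been dropped by the mapping quality minimum. The 168.3 kb span of Cx3cr1 overlaps other annotated genes, and reads in exons shared on the same strand would not have been assigned.

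Promoter sequences from the RefSeq table on GRCm38.p6, each running from 250 bases before to 50 bases after a transcript start, were found for 6 of the 7 genes, all but Ccr7. They were searched on both strands for the STAT core TTCNNNGAA, the AP-1 site TGANTCA and the cyclic AMP response element TGACGTCA; the latter 2 share their outer letters. Neither the STAT core nor the cyclic AMP response element occurred in any of the 6 genes, whereas 9.55% and 2.03% of the 27025 genes in the table hold them. The AP-1 letters occurred in 1 of the 6, Ccr3, and in 8.97% of all genes. A match is a description of letters, and the lack of one says only that the letters are not in this window. The promoters of Ccr1 and Ccr3 are shown because these neighboring genes rose together in both stimulated media, and that of Ccrl2, at the most upstream of its 3 starts, because its response to 4T1 CM differed between the genotypes. Sequences run 5′ to 3′ on the strand of the gene, and capitals mark the AP-1 letters, which begin 144 bases before the start of Ccr3.
Ccr1, chr9:123968643-123968942, minus strand: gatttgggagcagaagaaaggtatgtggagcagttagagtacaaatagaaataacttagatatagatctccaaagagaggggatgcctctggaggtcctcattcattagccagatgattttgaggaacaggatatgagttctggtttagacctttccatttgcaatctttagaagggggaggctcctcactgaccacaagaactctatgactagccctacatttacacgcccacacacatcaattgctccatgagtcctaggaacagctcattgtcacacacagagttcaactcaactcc
Ccr3, chr9:124021721-124022020, plus strand: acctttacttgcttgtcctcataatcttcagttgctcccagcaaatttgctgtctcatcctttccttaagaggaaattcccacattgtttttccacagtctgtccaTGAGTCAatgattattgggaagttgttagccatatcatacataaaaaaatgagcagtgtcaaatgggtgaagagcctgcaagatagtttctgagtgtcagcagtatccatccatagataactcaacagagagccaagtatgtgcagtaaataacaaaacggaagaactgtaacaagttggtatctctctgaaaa
Ccrl2, chr9:111057469-111057768, minus strand: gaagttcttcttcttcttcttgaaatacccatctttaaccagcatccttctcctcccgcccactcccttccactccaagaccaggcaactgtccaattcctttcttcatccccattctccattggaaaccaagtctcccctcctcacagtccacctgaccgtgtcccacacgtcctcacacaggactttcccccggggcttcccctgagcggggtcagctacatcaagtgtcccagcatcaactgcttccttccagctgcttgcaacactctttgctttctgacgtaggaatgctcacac

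To compare levels between genes, normalized CPM values were divided by exon length in kb (normalized FPKM). Cxcr4 had the highest level of the 7 in all 6 groups, with means of 144 to 376 normalized FPKM, and Ccr7 the lowest, with 0.0549 to 0.614. In unstimulated STAT5fl/fl BMDMs the order was Cxcr4 (376 ± 25.4, SD, n = 2), Cx3cr1 (24.8 ± 0.681), Ccrl2 (15.5 ± 1.18), Ccr2 (1.79 ± 0.586), Ccr1 (1.20 ± 0.0973), Ccr3 (0.616 ± 0.0521) and Ccr7 (0.0549 ± 0.0127), and the libraries of neighbors in this order did not overlap. After 4T1 CM, Ccr1 ranked 2 in STAT5fl/fl BMDMs at 43.9 ± 0.985 normalized FPKM (SD, n = 2) and 3 in STAT5cKO BMDMs at 26.6 ± 3.28 (SD, n = 3). Ccrl2 moved from rank 2 after rmGM-CSF to rank 4 after 4T1 CM in STAT5fl/fl BMDMs, where it fell below Cx3cr1. Neighbors whose libraries overlapped were Ccr2 and Ccr3 in both stimulated STAT5fl/fl groups, Ccr3 and Ccr7 in unstimulated STAT5cKO BMDMs, and Ccr1 and Ccrl2 in STAT5cKO BMDMs after 4T1 CM.

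**Figure D1:**
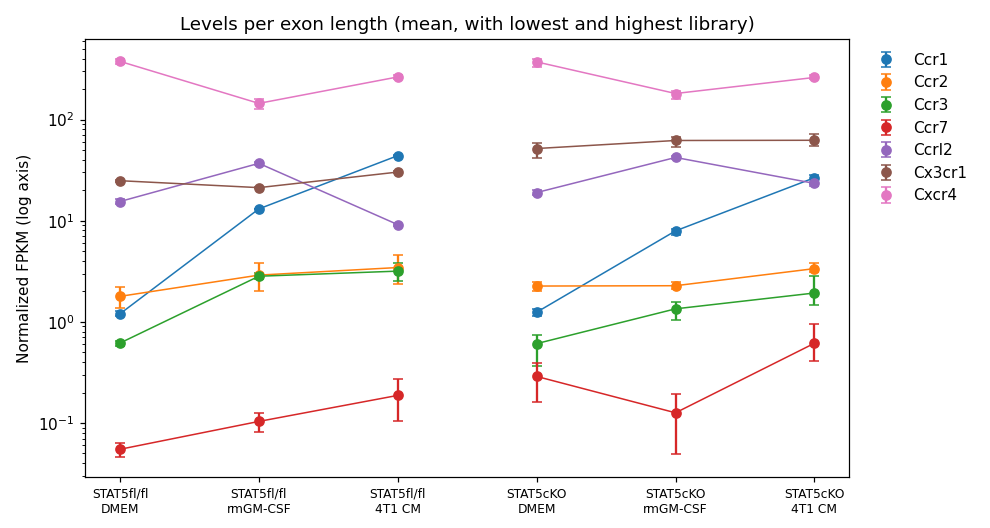
Normalized FPKM of the 7 receptors on a log axis, with points for group means and bars from the lowest to the highest library (n = 2 for STAT5fl/fl, n = 3 for STAT5cKO); lines join the media within a genotype. Cxcr4 is highest in all 6 groups, and Ccr1 climbs from 1.20 to 43.9 in STAT5fl/fl BMDMs between DMEM and 4T1 CM.

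Differences were tested with edgeR in 1 model of all 6 groups, on the 13005 genes with over 1 CPM in at least 2 libraries. A gene was called at an adjusted p under 0.01. Whether the libraries of 2 groups overlap is given below as a description only. With so few libraries, genes that do not differ can also be separated, and the share of all genes separated was not counted. Between the genotypes, Cx3cr1 was higher in STAT5cKO BMDMs in all 3 media, Ccr1 was lower after either stimulus, and Ccrl2 was higher after 4T1 CM. In DMEM, 1 of the 6 tested receptors was called higher, in a comparison that called 0.923% of genes higher and 1.43% lower. In rmGM-CSF, 1 was higher and 1 lower, beside 3.78% higher and 6.16% lower of all genes. In 4T1 CM, 2 were higher and 1 lower, beside 4.01% higher and 3.43% lower. The median log2 difference over the 6 receptors was 0.18 in DMEM, -0.07 in rmGM-CSF and -0.03 in 4T1 CM, against 0.0012, -4.7e-05 and 0.0096 over all genes tested.

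**Figure D2:**
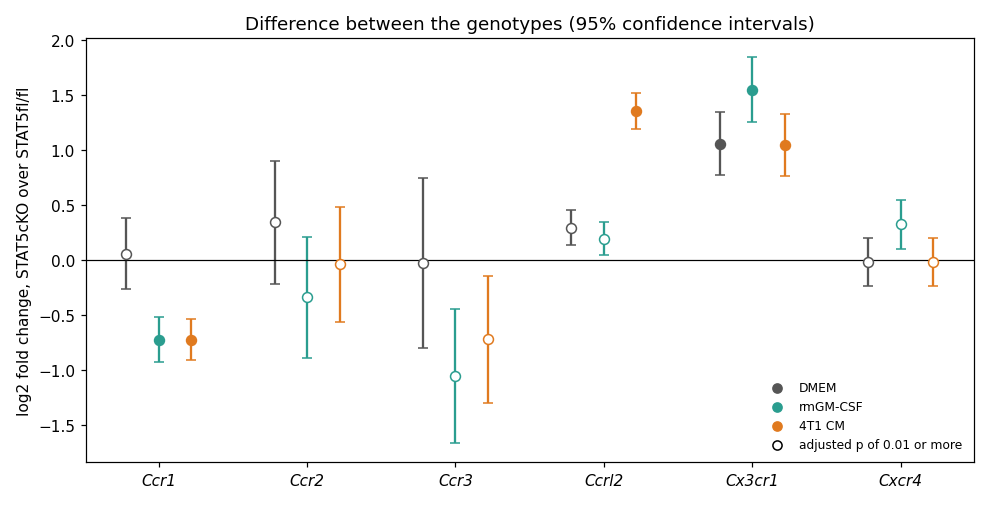
Log2 fold changes of STAT5cKO over STAT5fl/fl BMDMs in each medium for the 6 receptors tested, with 95% confidence intervals of the edgeR fit; filled points have an adjusted p under 0.01. Cx3cr1 lies above 0 in all 3 media, Ccr1 below 0 in rmGM-CSF and 4T1 CM, and Ccrl2, at 1.35 in 4T1 CM, is at most 0.29 in the other media.

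Stimulation moved most of the set. In STAT5fl/fl BMDMs, rmGM-CSF raised Ccr1, Ccr3 and Ccrl2 and lowered Cxcr4, which is 4 of 6 in a comparison that called 28.7% of all genes. Against DMEM, 4T1 CM raised Ccr1 and Ccr3 and lowered Ccrl2 and Cxcr4 (37.2% of all genes called). In STAT5cKO BMDMs, rmGM-CSF gave the same 4 calls in the same directions (23.5% of all genes), and 4T1 CM raised Ccr1, Ccr3 and Ccrl2 and lowered Cxcr4 (37.2%). When 4T1 CM was set against rmGM-CSF, Ccr1, Cx3cr1 and Cxcr4 were higher and Ccrl2 lower in STAT5fl/fl BMDMs (30.9% of all genes), and Ccr1 and Cxcr4 were higher and Ccrl2 lower in STAT5cKO BMDMs (34.1%). These comparisons share libraries, so that within a genotype they are not independent of each other.

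**Figure D3:**
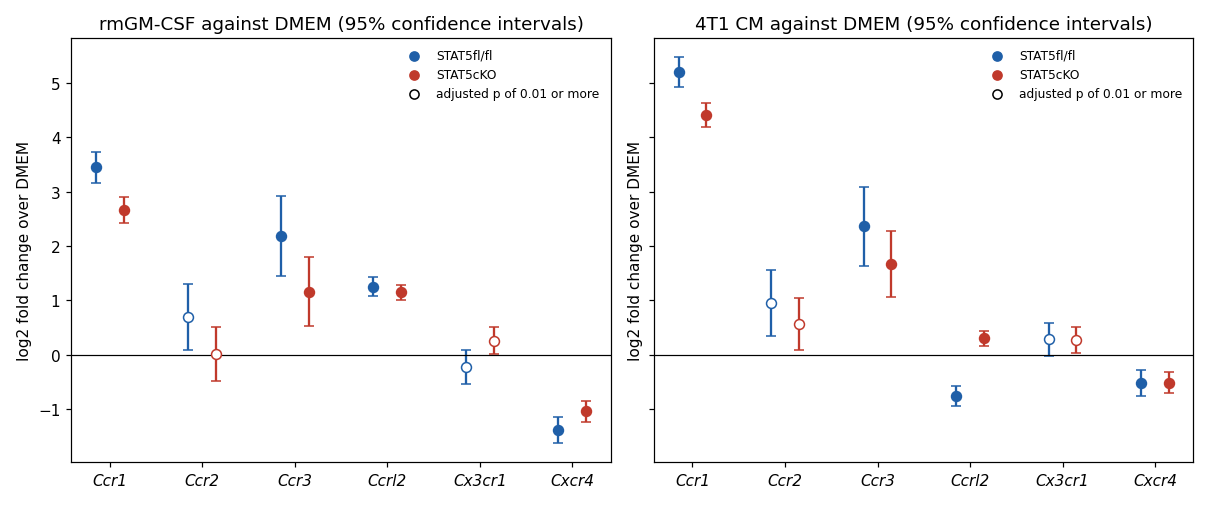
Log2 fold changes over DMEM in STAT5fl/fl (blue) and STAT5cKO (red) BMDMs for the 6 receptors tested, with 95% confidence intervals of the edgeR fit; filled points have an adjusted p under 0.01. Ccr1 has the highest values in both media, and Ccrl2 after 4T1 CM is the receptor whose called changes point in opposite directions.

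The difference of responses between the genotypes was tested as an interaction. For rmGM-CSF against DMEM, 0 of the 6 receptors were called by the edgeR quasi-likelihood test, which called 3.16% of all genes; 4 of the 6 had an unadjusted p under 0.05, as did 14.8% of all genes, and the edgeR likelihood ratio test and DESeq2 each called 1, Ccr1. With the mouse as a block, since the 3 libraries of a mouse share its number, 3 were called, Ccr1, Ccr2 and Cx3cr1 (4.04% of all genes). These calls depended on the fit. Limma voom with the mouse as a random effect called none of the 3 (adjusted p = 0.0792, 0.449 and 0.132). That model used 1 correlation between libraries of a mouse for all genes, 0.0681, so it hardly paired them. It cannot settle calls for genes whose level differs strongly between mice. For 4T1 CM against DMEM, 1 was called, Ccrl2 (1.31%), and with the block 2, Ccrl2 and Ccr1 (2.27%; limma voom adjusted p = 0.0826 for Ccr1). For 4T1 CM against rmGM-CSF, 1 was called, Ccrl2 (1.43%), and with the block 2, Ccrl2 and Cx3cr1 (2.12%; limma voom adjusted p = 0.168 for Cx3cr1).

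**Figure D4:**
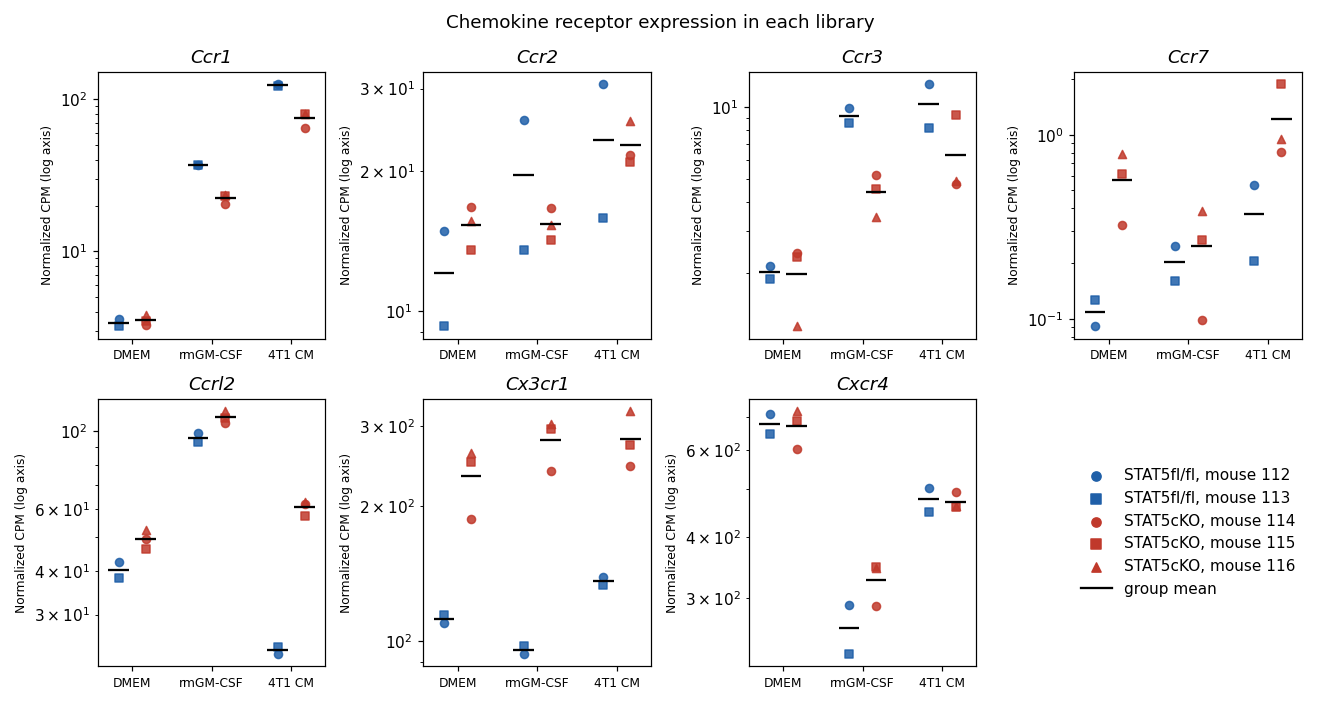
Normalized CPM of each receptor in all 15 libraries on log axes that differ between panels, by medium, with STAT5fl/fl in blue, STAT5cKO in red, a marker shape for each mouse and a bar at the group mean. The genotypes are separated for Cx3cr1 and Ccrl2 in all 3 media, and for Ccr1 in rmGM-CSF and 4T1 CM. The share of all genes separated in this way was not counted. The genotypes are also separated for Ccr3 in rmGM-CSF and for Ccr7, at few counts, in DMEM and 4T1 CM. Among the media, Ccrl2 differs most in 4T1 CM.

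Ccr1, a receptor for CCL3, CCL5 and other inflammatory chemokines, was lowest in DMEM and rose with both stimuli. In DMEM it measured 3.59 and 3.20 normalized CPM in the STAT5fl/fl libraries and 3.26, 3.48 and 3.83 in the STAT5cKO libraries, and the genotypes overlapped (log2 difference 0.06 ± 0.15, SE, adjusted p = 0.877). In rmGM-CSF it measured 37.0 and 37.1 in STAT5fl/fl and 20.6, 23.2 and 23.6 in STAT5cKO libraries. In 4T1 CM the values were 126 and 122.5 against 64.5, 80.6 and 80.7. The genotypes did not overlap in either stimulus, and Ccr1 was 1.65-fold lower in STAT5cKO BMDMs in both (log2 -0.72 ± 0.10, SE, adjusted p = 4.50e-05 in rmGM-CSF; -0.73 ± 0.09, adjusted p = 2.66e-05 in 4T1 CM).

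Within a genotype the rise of Ccr1 was large. rmGM-CSF raised it 10.9-fold in STAT5fl/fl (log2 3.45 ± 0.13, SE, adjusted p = 1.73e-12) and 6.35-fold in STAT5cKO BMDMs (log2 2.67 ± 0.11, adjusted p = 5.05e-12). The change with 4T1 CM was 36.6-fold in STAT5fl/fl (log2 5.20 ± 0.13, adjusted p = 9.56e-15) and 21.3-fold in STAT5cKO BMDMs (log2 4.41 ± 0.11, adjusted p = 2.41e-15). The STAT5cKO response was smaller by 0.78 on the log2 scale for rmGM-CSF (95% confidence interval -1.16 to -0.40) and likewise by 0.78 for 4T1 CM (-1.16 to -0.41). These differences missed the threshold in the reported fit (adjusted p = 0.0151 and 0.0201) and passed it with the mouse as a block (adjusted p = 0.00212 and 0.00274). They also passed with the likelihood ratio test (adjusted p = 0.0057 and 0.0059) and DESeq2 (adjusted p = 0.0054 and 0.0044). In limma voom with the mouse as a random effect they did not pass (adjusted p = 0.0792 and 0.0826). The step from rmGM-CSF to 4T1 CM was 3.36-fold in both genotypes, with a difference between them of 0.00 on the log2 scale (95% confidence interval -0.29 to 0.29).

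Ccr3, the eotaxin receptor, lies near Ccr1 on chromosome 9 and also rose with both stimuli, at a lower level. It measured 2.14 and 1.90 normalized CPM in STAT5fl/fl and 2.44, 2.35 and 1.19 in STAT5cKO libraries in DMEM, with overlapping genotypes. In rmGM-CSF the values were 9.90 and 8.58 against 5.20, 4.55 and 3.45, which did not overlap. In 4T1 CM they were 12.6 and 8.20 against 4.78, 9.25 and 4.89, which did. Against DMEM, rmGM-CSF raised Ccr3 4.57-fold in STAT5fl/fl (log2 2.19 ± 0.35, SE, adjusted p = 7.79e-05) and 2.24-fold in STAT5cKO BMDMs (log2 1.16 ± 0.30, adjusted p = 0.00624). The latter call was lost when mouse 112, 113, 114 or 116 was left out (adjusted p = 0.0118, 0.0114, 0.0260 and 0.0213). 4T1 CM raised it 5.15-fold (log2 2.36 ± 0.34, adjusted p = 2.04e-05) and 3.18-fold (log2 1.67 ± 0.29, adjusted p = 0.000121). Counts behind these values were 29 to 258 per library, the lowest of the 6 tested receptors.

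The genotype difference of Ccr3 did not pass the threshold in any medium. In rmGM-CSF it was -1.06 ± 0.29 on the log2 scale (adjusted p = 0.0171, 95% confidence interval -1.66 to -0.45), and DESeq2 gave an adjusted p of 0.00337. In 4T1 CM it was -0.72 ± 0.27 (adjusted p = 0.0883). Since CCR3 marks eosinophils, their other markers were read beside it. The summed level of 4 eosinophil markers spanned 3.32 to 8.56 normalized CPM in STAT5fl/fl and 1.92 to 3.64 in STAT5cKO libraries, and was highest in STAT5fl/fl BMDMs after 4T1 CM. This sum was almost all Siglecf, while Epx and Prg2 had no count in any library and Il5ra at most 2. No called difference of Ccr3 responses between the genotypes was found (log2 -1.03 for rmGM-CSF, 95% confidence interval -2.02 to -0.04, and -0.70 for 4T1 CM, -1.66 to 0.27).

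Ccr2, the CCL2 receptor of inflammatory monocytes, differed more between the STAT5fl/fl mice than between the genotypes. In DMEM it measured 14.9 and 9.27 normalized CPM in STAT5fl/fl and 16.7, 13.5 and 15.6 in STAT5cKO libraries. In rmGM-CSF the values were 25.7 and 13.5 against 16.7, 14.2 and 15.3, and in 4T1 CM 30.7 and 15.8 against 21.6, 20.9 and 25.6. The genotypes overlapped in all 3 media, and mouse 112 was 1.604, 1.90 and 1.94 times mouse 113 in DMEM, rmGM-CSF and 4T1 CM. Accordingly, the genotype differences had wide intervals (log2 0.34, 95% confidence interval -0.22 to 0.90 in DMEM, -0.34, -0.89 to 0.21 in rmGM-CSF, and -0.04, -0.56 to 0.49 in 4T1 CM). In rmGM-CSF the difference depended on which mouse stood for the STAT5fl/fl group, with -0.74 (adjusted p = 0.00625) without mouse 113 and 0.19 (adjusted p = 0.519) without mouse 112.

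Read within each mouse, Ccr2 was higher after 4T1 CM than in DMEM in all 5 mice. In STAT5fl/fl BMDMs the change with 4T1 CM was log2 0.95 ± 0.28 (SE, adjusted p = 0.0101; with the block 0.92, adjusted p = 2.31e-06), and in STAT5cKO BMDMs 0.57 ± 0.23 (adjusted p = 0.0452; with the block 0.57, adjusted p = 3.15e-05). The change with rmGM-CSF was 0.69 ± 0.29 in STAT5fl/fl BMDMs (adjusted p = 0.0674; with the block 0.67, adjusted p = 0.00014) and 0.01 ± 0.23 in STAT5cKO BMDMs (adjusted p = 0.98). The difference of these 2 responses was -0.68 (adjusted p = 0.450) and passed with the block (-0.66, adjusted p = 0.00904). 4T1 CM stood above rmGM-CSF in STAT5cKO BMDMs by log2 0.56 ± 0.23 (adjusted p = 0.0544; with the block adjusted p = 6.40e-05). The limma voom fit with a random mouse term used a correlation of 0.0681 for all genes, so it hardly paired the libraries of a mouse. In that fit, the rise with 4T1 CM in STAT5fl/fl BMDMs passed the threshold (adjusted p = 0.00777). Those with rmGM-CSF in STAT5fl/fl (adjusted p = 0.0736) and with 4T1 CM in STAT5cKO BMDMs (adjusted p = 0.0249) did not. Nor did the step from rmGM-CSF to 4T1 CM in STAT5cKO BMDMs (adjusted p = 0.0360). The sum of 3 monocyte markers was low and moved the same way, with 0.169 to 0.227 normalized CPM in DMEM against 0.389 to 1.24 in 4T1 CM in STAT5fl/fl libraries, and 0.165 to 0.217 against 0.802 to 1.81 in STAT5cKO libraries. Its part in the Ccr2 values was not tested.

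**Figure D5:**
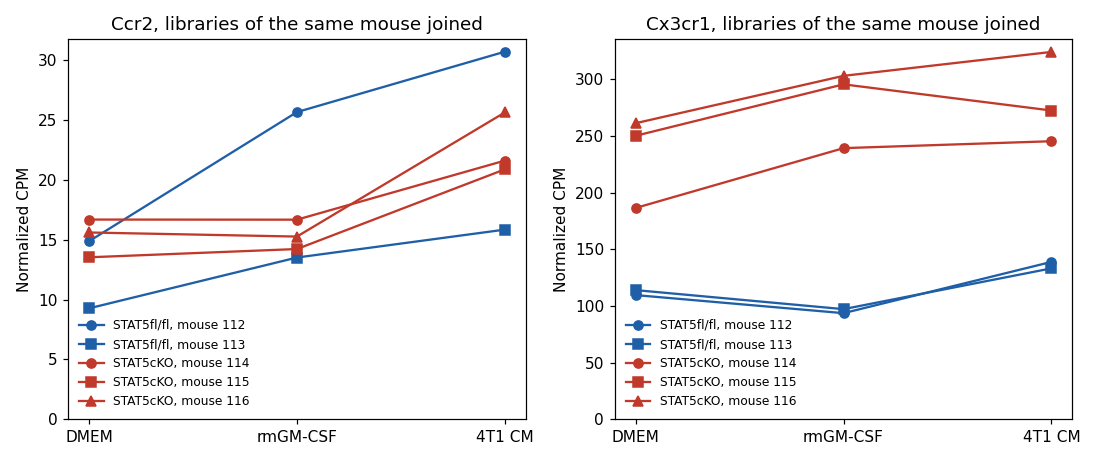
Normalized CPM of Ccr2 and Cx3cr1 in the 3 media, with the libraries of each mouse joined (STAT5fl/fl blue, STAT5cKO red). For Ccr2, mouse 112 lies 1.604 to 1.94 times above mouse 113; for Cx3cr1, the lines of the STAT5cKO mice lie above those of the STAT5fl/fl mice in every medium.

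Cx3cr1, the fractalkine receptor, was the receptor that differed between the genotypes in every medium. It measured 110 and 114 normalized CPM in STAT5fl/fl and 187, 250.3 and 261 in STAT5cKO libraries in DMEM, 93.8 and 97.3 against 239, 296 and 303 in rmGM-CSF, and 139 and 133 against 245.5, 273 and 324 in 4T1 CM. Every STAT5cKO library lay above every STAT5fl/fl library, including across media. The difference was 2.08-fold in DMEM (log2 1.06 ± 0.13, SE, adjusted p = 0.00022), 2.92-fold in rmGM-CSF (1.55 ± 0.14, adjusted p = 3.81e-07) and 2.06-fold in 4T1 CM (1.04 ± 0.13, adjusted p = 5.23e-05). The call in DMEM was lost when either STAT5fl/fl mouse was left out, with log2 differences of 1.03 (adjusted p = 0.0178, without mouse 112) and 1.09 (adjusted p = 0.0194, without mouse 113). Mouse 114 had the lowest Cx3cr1 of the STAT5cKO mice in each medium.

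Responses of Cx3cr1 to the media were small. In STAT5fl/fl BMDMs, rmGM-CSF gave log2 -0.23 ± 0.15 (adjusted p = 0.235) and in STAT5cKO BMDMs 0.26 ± 0.12 (adjusted p = 0.0908; with the block 0.27, adjusted p = 0.00126). The difference of these responses was 0.49 ± 0.19 (adjusted p = 0.186; with the block 0.50, adjusted p = 0.00196). 4T1 CM against DMEM gave 0.28 in STAT5fl/fl BMDMs (adjusted p = 0.117; with the block adjusted p = 0.00335) and 0.27 in STAT5cKO BMDMs (adjusted p = 0.063; with the block adjusted p = 0.0006). In the limma voom fit with a random mouse term, the adjusted p of the 3 responses that passed with the block was 0.0578 for rmGM-CSF in STAT5cKO BMDMs and 0.0920 and 0.0393 for 4T1 CM against DMEM in STAT5fl/fl and STAT5cKO BMDMs. Against rmGM-CSF, 4T1 CM gave 0.51 ± 0.15 in STAT5fl/fl BMDMs, which was called (adjusted p = 0.00945) and was lost without mouse 112, 113 or 115 (adjusted p = 0.155, 0.103 and 0.0138). The same step in STAT5cKO BMDMs was 0.01 ± 0.12, and the difference between the genotypes was -0.50 (adjusted p = 0.227; with the block -0.51, adjusted p = 0.00293).

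Ccrl2, the atypical receptor that binds chemerin, responded to 4T1 CM in opposite directions in the genotypes. It measured 42.3 and 38.0 normalized CPM in STAT5fl/fl and 49.3, 46.2 and 52.4 in STAT5cKO libraries in DMEM. In rmGM-CSF it rose in all libraries, to 98.6 and 93.1 against 106, 109 and 114. In 4T1 CM it measured 23.2 and 24.3 against 61.8, 57.3 and 63.0. The genotypes did not overlap in any medium, but the difference in DMEM (log2 0.29 ± 0.07, SE, adjusted p = 0.0237) and in rmGM-CSF (0.19 ± 0.07, adjusted p = 0.0715) missed the threshold. After 4T1 CM, Ccrl2 was 2.56-fold higher in STAT5cKO BMDMs (log2 1.35 ± 0.08, adjusted p = 8.10e-09).

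By response, rmGM-CSF raised Ccrl2 2.39-fold in STAT5fl/fl (log2 1.25 ± 0.08, SE, adjusted p = 1.08e-09) and 2.22-fold in STAT5cKO BMDMs (1.15 ± 0.06, adjusted p = 2.67e-10). These responses differed by -0.10 on the log2 scale (95% confidence interval -0.32 to 0.11, adjusted p = 0.778). 4T1 CM lowered Ccrl2 1.69-fold in STAT5fl/fl (log2 -0.76 ± 0.08, adjusted p = 9.68e-07) and raised it 1.23-fold in STAT5cKO BMDMs (0.30 ± 0.06, adjusted p = 0.000864). Without mouse 114 the latter rise was 0.29 with an adjusted p of 0.0136. The responses to 4T1 CM differed by 1.06 ± 0.11 (95% confidence interval 0.83 to 1.28, adjusted p = 4.09e-05). Relative to rmGM-CSF, 4T1 CM gave 4.03-fold lower Ccrl2 in STAT5fl/fl (log2 -2.01 ± 0.08, adjusted p = 1.06e-11) and 1.80-fold lower in STAT5cKO BMDMs (-0.85 ± 0.06, adjusted p = 7.57e-09), and these steps differed by 1.16 ± 0.10 (0.94 to 1.38, adjusted p = 3.44e-06). Ccrl2 was thus the receptor for which the interaction was called in the reported fit, without the block, in both comparisons that involve 4T1 CM. The likelihood ratio test and DESeq2, also without the block, called that of Ccr1 for 4T1 CM against DMEM too (adjusted p = 0.0059 and 0.0044).

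Cmklr1, a signaling receptor for the same ligand, had another pattern. It was 40.8 ± 7.52 normalized CPM in STAT5fl/fl (SD, n = 2) and 11.4 ± 2.82 in STAT5cKO BMDMs (SD, n = 3) after rmGM-CSF, a 3.57-fold lower level (log2 -1.84 ± 0.27, SE, adjusted p = 0.000115). After 4T1 CM the means were 16.2 ± 1.45 and 10.2 ± 5.30 (log2 -0.67, adjusted p = 0.131).

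Cxcr4, the CXCL12 receptor, was the most abundant of the 7 and fell with both stimuli. In DMEM it measured 712 and 647 normalized CPM in STAT5fl/fl and 604, 689 and 720.4 in STAT5cKO libraries. The values were 291 and 231 against 288.5, 346.5 and 345 in rmGM-CSF, and 503 and 450.0 against 493, 459 and 461 in 4T1 CM. The genotypes overlapped in all 3 media, and their log2 differences were -0.02 in DMEM (95% confidence interval -0.23 to 0.20), 0.32 in rmGM-CSF (0.10 to 0.54, adjusted p = 0.0412) and -0.02 in 4T1 CM (-0.23 to 0.20). rmGM-CSF lowered Cxcr4 2.60-fold in STAT5fl/fl (log2 -1.38 ± 0.11, SE, adjusted p = 3.73e-08) and 2.06-fold in STAT5cKO BMDMs (-1.04 ± 0.09, adjusted p = 1.23e-07). 4T1 CM lowered it less, by log2 -0.51 in both genotypes (adjusted p = 0.00112 and 0.000169), although the STAT5fl/fl call was lost without mouse 112 or 113 (adjusted p = 0.01002 and 0.0153). Levels after 4T1 CM stood above those after rmGM-CSF, 1.83-fold in STAT5fl/fl (adjusted p = 9.37e-06) and 1.44-fold in STAT5cKO BMDMs (adjusted p = 0.00016). The difference of responses to rmGM-CSF was 0.34 (95% confidence interval 0.03 to 0.65, adjusted p = 0.262).

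Ccr7, the lymph node homing receptor, was at the edge of detection and did not pass the filter. In STAT5fl/fl libraries it had 2 and 3 counts in DMEM, 4 and 3 in rmGM-CSF, and 11 and 4 in 4T1 CM. The STAT5cKO libraries had 7, 14 and 19 counts in DMEM, 2, 6 and 6 in rmGM-CSF, and 17, 40 and 21 in 4T1 CM. The genotypes did not overlap in DMEM and 4T1 CM, and they overlapped in rmGM-CSF. In a fit without the filter, the adjusted p of the genotype difference was 0.0128 in DMEM and 0.0139 in 4T1 CM, and 4T1 CM stood above rmGM-CSF in STAT5cKO BMDMs by log2 2.30 ± 0.48 (SE, adjusted p = 1.49e-05). CCR7 also marks mature dendritic cells. The sum of 7 other dendritic cell markers was 19.6 to 74.3 normalized CPM, lowest in DMEM and highest in STAT5fl/fl BMDMs after rmGM-CSF. Most of it was Itgax (17.3 to 51.6) and Ccl22 (0.843 to 21.7). Flt3, Clec9a and Siglech had at most 4, 8 and 15 counts in any library. The part of dendritic cells in the Ccr7 values was not tested.

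Across the 15 libraries, the log2 CPM of Ccr1 and Ccr3 had a Pearson correlation of 0.88, that of Ccr1 and Ccr2 0.67, and that of Ccr2 and Ccr3 0.615, so the 3 neighbors on chromosome 9 varied together to different extents. Cxcr4 had negative values with Ccrl2 (-0.67), Ccr3 (-0.66) and Ccr1 (-0.55). Cx3cr1 had a value of 0.06 with Ccr1 and 0.30 with Ccrl2. These values describe the shared libraries, which differ by medium and genotype, and carry no test. Among all tested genes, the pattern most like that of Ccr1 was Jak2 (0.996), followed by Actg1 and Map2k3, that of Ccr3 was Peak1 (0.964), and that of Ccr2 was Ap4e1 (0.849). Ccrl2 was most like Ifrd1 (0.970), Cx3cr1 like Atp2a3 (0.958), and Cxcr4 like Trim65 (0.981).

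Of 16 genes for ligands of these receptors, a list chosen with earlier results of these data known, 10 passed the filter. Most of these 10 were lower in STAT5cKO than in STAT5fl/fl BMDMs after stimulation. In rmGM-CSF 7 of the 10 were lower, beside 6.16% of all genes, with a median log2 difference of -1.64 over the 10 against -4.7e-05 over all genes. In 4T1 CM 6 were lower, beside 3.43% of all genes, with a median of -0.86 against 0.0096. In DMEM 1 was higher and 1 lower, beside 0.923% and 1.43%, with a median of 0.17 against 0.0012. Ccl2, the main ligand of CCR2, was 137 ± 31.8 normalized CPM in STAT5fl/fl (SD, n = 2) and 10.1 ± 1.64 in STAT5cKO BMDMs (SD, n = 3) after rmGM-CSF (log2 -3.78 ± 0.19, SE, adjusted p = 2.33e-10), and 52.1 ± 8.82 against 15.5 ± 2.84 after 4T1 CM (-1.75 ± 0.18, adjusted p = 5.13e-06). Ccl7, which binds CCR1, CCR2 and CCR3, was 64.1 ± 18.6 against 2.09 ± 0.445 after rmGM-CSF (-4.96 ± 0.20, adjusted p = 1.36e-11) and 24.2 ± 5.47 against 5.36 ± 0.397 after 4T1 CM (-2.17 ± 0.18, adjusted p = 5.52e-07). In DMEM, the CCR1 ligand Ccl9 was higher (log2 0.46, adjusted p = 0.00368) and Ccl6 lower (-0.56, adjusted p = 0.00817). After rmGM-CSF, the differences of Ccl2 and Ccl7 were larger in size than that of any of the 6 receptors tested.

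All 26 genes for receptor signaling and desensitization passed the filter. After rmGM-CSF 3 were higher and 1 lower in STAT5cKO BMDMs, which is 15.4% called beside 9.93% of all genes, with a median log2 difference of -0.01 against -4.7e-05 over all genes. After 4T1 CM 3 were likewise higher and 1 lower, 15.4% beside 7.44%, with a median of 0.03 against 0.0096. Rgs1, which speeds the shut-off of G protein signaling, was 161 ± 11.9 normalized CPM in STAT5cKO (SD, n = 3) and 106 ± 4.18 in STAT5fl/fl BMDMs (SD, n = 2) after rmGM-CSF (log2 0.60 ± 0.08, SE, adjusted p = 3.34e-05), and 317 ± 21.1 against 138 ± 7.15 after 4T1 CM (1.20 ± 0.08, adjusted p = 3.58e-08). Rgs2, of the same family, was higher after rmGM-CSF (1.07 ± 0.09, adjusted p = 3.32e-07), and Arrb1, which encodes β-arrestin 1, after 4T1 CM (0.40 ± 0.06, adjusted p = 0.000282). Pik3cg, which encodes the PI3K subunit activated by Gβγ, was lower after both stimuli (-0.67, adjusted p = 7.12e-06, and -0.35, adjusted p = 0.00514). In DMEM the single call, 3.85% beside 2.35% of all genes, was Gng2, a Gγ subunit, which was lower (-0.59 ± 0.07, adjusted p = 0.000132).

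Of 17 further chemokine receptor genes, 15 did not pass the filter, of which 8 had at most 3 counts in every library. Cxcr3, the receptor for the interferon-induced chemokines, passed, with 4.76 ± 0.301 normalized CPM in STAT5fl/fl (SD, n = 2) and 3.81 ± 0.299 in STAT5cKO BMDMs (SD, n = 3) in DMEM. It was lowered by 4T1 CM in STAT5fl/fl (log2 -1.81 ± 0.28, SE, adjusted p = 3.35e-05) and in STAT5cKO BMDMs (-1.10 ± 0.22, adjusted p = 0.000422), and its genotype differences of -0.32 in DMEM, 0.37 in rmGM-CSF and 0.39 in 4T1 CM were not called (adjusted p = 0.393 to 0.429).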

How the data were processed

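RNA-seq libraries of total RNA from BMDMs were strand-specific. According to the labels and the file header, the authors trimmed reads with Trimmomatic 0.33, aligned them to GRCm38 with HISAT2 2.1.0 and counted fragments with both ends mapped per gene with featureCounts 1.6.2 (reverse strand, minimum MAPQ 10). What they deposited were raw counts of 55385 genes in 15 libraries, of which 55144 matched a symbol. The header names 6 further libraries that are not analysed here. No batch is given in the labels.

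These counts were fitted with edgeR 4.0.16 (R 4.3.3): RLE normalization (factors 0.945 to 1.08), over 1 CPM in at least 2 libraries (13005 genes), 1 group-means model of all 6 groups, quasi-likelihood F tests and Benjamini-Hochberg adjustment over all genes tested, with calls at an adjusted p under 0.01. The scaling, filter and threshold are those of the study's methods; the quasi-likelihood test was chosen here, as its linear model test is not specified further. SEs were derived from the log2 fold change and its F statistic. Normalized CPM are counts scaled to the library total multiplied by the RLE factor. All 15 libraries had 16016736 to 22883108 assigned counts, and fold changes of genes with few counts are less precise. The common biological coefficient of variation was 0.0787. Alternatives were TMM scaling, no filter, filterByExpr, the likelihood ratio test, DESeq2 1.42.0, limma 3.58.1 (voom with the mouse as a random effect), the libraries of each comparison alone, a threshold of 0.05, the mouse as a block, and leaving out each mouse.

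The number in each label, shared by the 3 media, was read as the mouse. Deviations from group means of libraries with the same number had mean correlations of 0.157 in STAT5cKO (0.0548 to 0.214 over 9 pairs) and 0.142 in STAT5fl/fl (0.0926 to 0.213 over 6 pairs), and blocked values are given where they change a call. The genotype differences cannot be blocked with a fixed mouse term, since each mouse has 1 genotype. Limma voom with the mouse as a random effect was also fitted to them. It called 1 receptor in DMEM, 2 in rmGM-CSF and 3 in 4T1 CM, the same numbers as the reported fit. The replicates are mice, but the reported fit treated the 15 libraries as independent. Its spread was pooled over the 6 groups, in which each mouse enters 3 times. Its p-values therefore do not measure the spread between these 5 animals alone.

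The receptors and the gene lists were chosen with earlier results of these data known. Genes named are the receptors, Stat5a and Stat5b, Cmklr1, other chemokine receptors that passed the filter, up to 2 genes in each direction with the smallest adjusted p per list and genotype comparison, and the genes most correlated with each receptor over the 15 libraries (log2 CPM with a prior count of 2). A gene of the list of other receptors is not reported here.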

Additional observations from a re-analysis of the deposited data

Results flagged for a closer look

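The response of Ccrl2 to 4T1 CM relative to DMEM differed between the genotypes by 1.059 on the log2 scale (STAT5cKO minus STAT5fl/fl, edgeR adjusted p = 4.09e-05), with a fall in both STAT5fl/fl mice and a rise in all 3 STAT5cKO mice. It was 1.06 with the mouse as a block (adjusted p = 8.45e-06), and from 0.95 to 1.17 when each mouse was left out, with adjusted p from 0.000372 to 0.00511. The response to 4T1 CM relative to rmGM-CSF differed by 1.161 (adjusted p = 3.44e-06), 1.16 with the block (adjusted p = 8.38e-07), and 1.09 to 1.23 when each mouse was left out. Both differences rest on the same 4T1 CM libraries.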

How the results depend on the processing

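The number of receptors called was within 1.5 times the reported one in 145 of the recomputed comparisons and moved in 20. In DMEM, the genotype comparison gave 2 calls at an adjusted p of 0.05 and 0 to 1 when each mouse was left out. In rmGM-CSF it gave 4 without the filter and 4 at 0.05. For 4T1 CM against rmGM-CSF in STAT5cKO BMDMs, no filter gave 5. For the interaction of genotype with rmGM-CSF against DMEM, the counts were 3 without the filter, 1 with the likelihood ratio test, 1 with DESeq2, 1 at 0.05, 3 with the mouse as a block, 1 with only the libraries of the comparison, and 0 to 1 without each mouse. For 4T1 CM against DMEM, no filter, the likelihood ratio test, DESeq2, 0.05 and the block each gave 2, and for 4T1 CM against rmGM-CSF, no filter and the block each gave 2. The cause was not tested, except that 0.05 is a looser threshold. The fit without the filter gave a far smaller adjusted p for Cx3cr1 in DMEM at a similar log2 value, as given above. Its added calls therefore carry less weight. Of the values of single receptors, 13 lost their call, 58 gained one and 24 changed sign; filterByExpr lost that of Cx3cr1 for 4T1 CM against rmGM-CSF in STAT5fl/fl BMDMs (adjusted p = 0.01007). The block lost no call of a receptor. Limma voom with the mouse as a random effect, at a correlation of 0.0681 for all genes, gained none of the interaction calls that the block gained. TMM scaling changed no count of calls by over 1.5 times. Where a STAT5fl/fl mouse was left out, the lone library of a group was assumed to vary like the other groups.

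Values that changed sign were all uncalled in the reported fit. Without each mouse, genotype log2 differences in DMEM ran from -0.0243 to 0.141 for Ccr1, -0.193 to 0.247 for Ccr3 and -0.0837 to 0.0543 for Cxcr4. For Ccr2 they ran from -0.737 to 0.185 in rmGM-CSF and -0.437 to 0.521 in 4T1 CM, where limma voom gave 0.0291, and for Cxcr4 in 4T1 CM from -0.0964 to 0.0666. Responses ran from -0.0669 to 0.342 for Ccr3 (4T1 CM against rmGM-CSF, STAT5fl/fl), -0.0120 to 0.0328 for Ccr2 (rmGM-CSF against DMEM, STAT5cKO) and -0.0467 to 0.0712 for Cx3cr1 (4T1 CM against rmGM-CSF, STAT5cKO). Interactions ran from -0.0735 to 0.0641 for Cx3cr1 and -0.102 to 0.0714 for Cxcr4 (4T1 CM against DMEM; -0.000753 without the filter for Cxcr4), and from -0.0301 to 0.0405 for Ccr1 and -0.0313 to 0.632 for Ccr3 (4T1 CM against rmGM-CSF). Ccr7 had 40 counts or fewer in every library, so its values are imprecise.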
